A study of Mus musculus with 4 samples.

Results

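The genes that turn membrane arachidonic acid into prostaglandins and leukotrienes were examined in mouse tendon. The set held 10 genes chosen by name: Pla2g4a, which stands before both branches; Ptgs1, Ptgs2, Ptges, Ptgds and Ptgis of the cyclooxygenase branch; and Alox5, Alox5ap, Lta4h and Ltc4s of the lipoxygenase branch. Of these, 9 had a probe set to which the platform annotation gives exactly 1 gene symbol, out of 22180 genes measured in this way. Ptgs1, the constitutive cyclooxygenase gene, had none and was not analysed here. Each gene is represented by the probe set with the highest mean over the 4 arrays, and Alox5 and Alox5ap each have 1 further probe set.

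The study asked how gene expression differs between tendon of male and female mice at rest. The arrays measured 2 male and 2 female samples from wild-type C57Bl/6 mice, an inbred strain, aged 4 months; no group was treated. The Achilles and plantaris tendons of an animal were combined, so that RNA of every cell in the tissue was measured, although the labels name tenocytes as the cell type. In such bulk samples fewer cells of a type and less RNA per cell cannot be told apart. Nothing in the labels states that the samples of one sex were different animals; the p-values therefore reflect the spread among 4 samples, and this may be technical.

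Cytosolic phospholipase A2 releases arachidonic acid from membranes. Cyclooxygenases convert it to prostaglandin H2, from which terminal synthases make prostaglandin E2, prostaglandin D2 or prostacyclin. In the other branch 5-lipoxygenase, helped by its activating protein, makes leukotriene A4, which becomes leukotriene B4 or C4. Prostaglandin E2 and leukotriene B4 are known as mediators released by loaded or injured tendon, and 5-lipoxygenase is known mainly from leukocytes.

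Values are log2 expression values, and the medians of all rows lay between 2.27 and 2.30 on the 4 arrays. A probe set below the median of an array is described as such, since its signal was not told from background there. The 9 tendon markers measured, among them Scx and Tnmd, gave signal, and 8 of them lay above the array median on all 4 arrays. Skeletal muscle markers did so too, with a median level between 9.34 and 10.52 per array, so muscle RNA was in every sample. Levels of different genes are not compared, because probe sets differ in their response.

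Between the sexes, limma called 0 of 23521 probe sets at an adjusted p under 0.05, and hence 0 of the 9 members (0% of all probe sets). At an unadjusted p under 0.05 there was 1 member, Alox5, which was higher in females, against 1056 probe sets, or 4.49% of all (2.64% higher in females). The female and male arrays did not overlap for 3 of the 9 members, Alox5 and Ltc4s toward females and Pla2g4a toward males, and for 33.3% of all probe sets. A log2 difference over 1 toward females was seen for 2 members, Alox5 and Alox5ap, and for 1.1% of all probe sets. With 2 arrays against 2, an exact permutation test cannot give a two-sided p below 0.333.

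**Figure D1:**
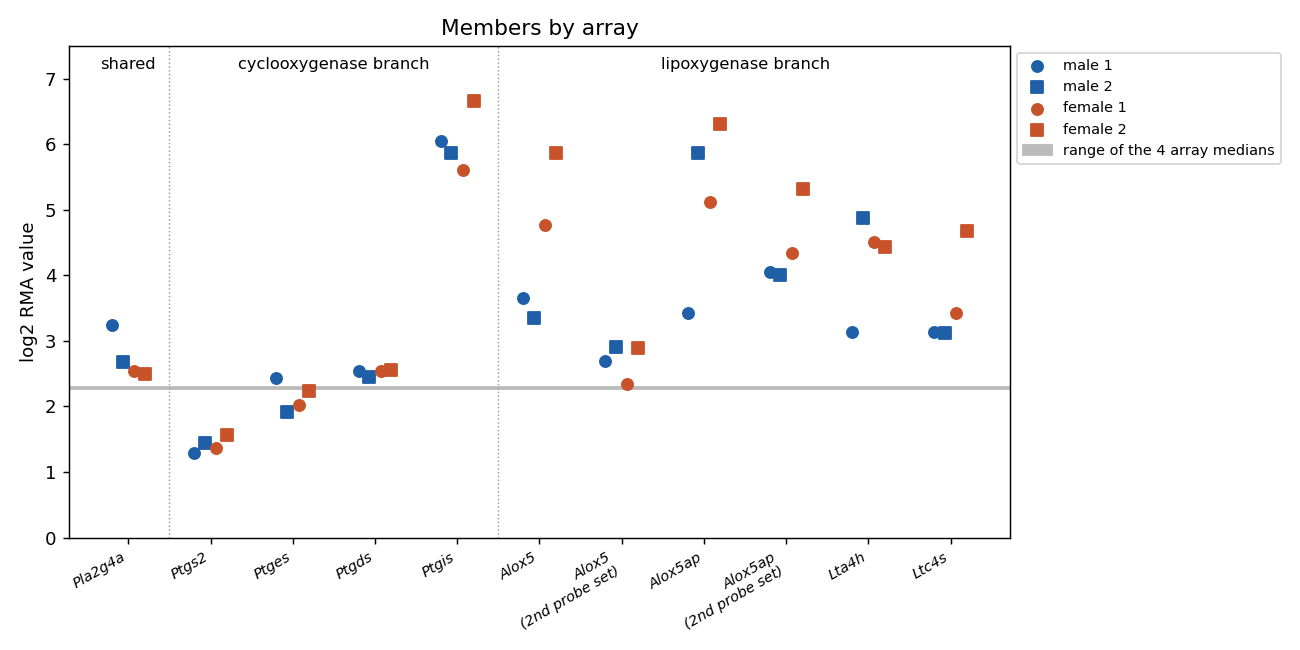
Log2 RMA value of each member (y axis) on each array: male arrays in blue, female arrays in orange, replicate 1 as circles and replicate 2 as squares. The grey band is the range of the 4 array medians, 2.27 to 2.30. Alox5 was at 3.35 and 3.66 in males and at 4.77 and 5.87 in females, while its other probe set lay between 2.34 and 2.91; Ptgs2 lay below the band on every array.

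Pla2g4a, which encodes the cytosolic phospholipase A2 that supplies arachidonic acid, was at 3.24 and 2.67 in males 1 and 2 and at 2.54 and 2.49 in females 1 and 2. Every male array lay above every female array, by little between male 2 and female 1. The difference, female minus male, was -0.44 (SE 0.24, 95% interval -1.08 to 0.19; limma, adjusted p = 0.969). Without male 1 the difference was -0.16, and without male 2 it was -0.73. In the RefSeq gene table of GRCm38.p6, Pla2g4a and Ptgs2 lie near each other on chromosome 1, with 0 protein-coding genes between them.

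In the cyclooxygenase branch, Ptgs2, the inducible cyclooxygenase gene, was at 1.29 and 1.45 in males and 1.36 and 1.57 in females. All 4 values lay below the array medians, so no difference is read from them. Ptgs2 is known as an immediate early gene, and the 14 immediate early genes measured beside it were lower in females in 12, with 6 not overlapping toward males (17.5% of all probe sets) and a median difference of -0.49. Of these, 3 were lower in females at an unadjusted p under 0.05 (1.85% of all probe sets in that direction), and 0 passed the adjusted threshold.

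Ptges encodes the inducible microsomal prostaglandin E synthase. It was at 2.44 and 1.91 in males and 2.02 and 2.24 in females, above the array median only in male 1. Ptgds, the gene of lipocalin-type prostaglandin D synthase, was at 2.54 and 2.46 in males and 2.54 and 2.55 in females. Its 4 values spanned 0.093, just above the array medians, and the difference was 0.04 (SE 0.14, 95% interval -0.34 to 0.43).

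Ptgis, which encodes prostacyclin synthase, was well above the array medians in every sample. It was at 6.05 and 5.86 in males and 5.60 and 6.66 in females. The female arrays lay on either side of both male arrays. The difference was 0.18 (SE 0.39, 95% interval -0.86 to 1.22; limma, adjusted p = 0.983). Without female 2 it was -0.35, and without female 1 it was 0.71. The interval does not show equal levels: as a female to male ratio it runs from 0.55 to 2.33, so it includes differences in either direction.

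In the lipoxygenase branch, Alox5, the 5-lipoxygenase gene, was at 3.66 and 3.35 in males 1 and 2 and at 4.77 and 5.87 in females 1 and 2. Both female arrays lay above both male arrays, with a gap of 1.11. The difference was 1.81 (SE 0.41), or 3.52-fold (95% interval 1.64 to 7.54), at an unadjusted p of 0.00923 that did not pass after adjustment over all probe sets (limma, adjusted p = 0.969). It was 1.26 without female 2 and 2.37 without female 1.

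The other Alox5 probe set did not show this. It was at 2.70 and 2.91 in males and 2.34 and 2.90 in females, a difference of -0.19 (SE 0.25, 95% interval -0.85 to 0.47). Both Alox5 probe sets lay above the array medians on all 4 arrays. RefSeq places Alox5 on the minus strand. Probe set numbers follow the chromosome separately by strand: of 17707 probe sets tested for this, 16417 (92.7%) shared their gene's strand with more than 80% of the neighbours within 10 places on each side. The higher Alox5 probe set (17462128) lay among 15 neighbours of known strand, of which 15 were on the plus strand. The lower one (17470031) had 14 of 15 neighbours on the minus strand, that of the gene. Under 20% of neighbours on the gene's strand, as for 17462128, was seen in 589 of the 17707 (3.33%). The probe sequences were not used here, and which transcript the higher probe set measures was not tested.

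Alox5ap encodes the membrane protein that presents arachidonic acid to 5-lipoxygenase. Its higher probe set (17455498) was at 3.42 and 5.87 in males and 5.12 and 6.31 in females. The male arrays lay further apart than the female arrays, and the groups overlapped. The difference was 1.07 (SE 0.93, 95% interval -1.41 to 3.55; limma, adjusted p = 0.969), and it was -0.15 without male 1 and 2.29 without male 2.

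The other Alox5ap probe set (17444961) was tighter in males. It was at 4.05 and 4.01 in males and at 4.34 and 5.32 in females, with both females above both males. The difference was 0.80 (SE 0.36, 95% interval -0.16 to 1.76; limma, adjusted p = 0.969). The higher probe set had 19 of 19 neighbours of known strand on the minus strand and this one 16 of 16 on the plus strand, so the pair lies in runs of opposite strand. The strand of Alox5ap was missing from the source of gene strands, so which run is the gene's own was not determined.

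Ltc4s encodes leukotriene C4 synthase, which joins leukotriene A4 to glutathione. It was at 3.14 and 3.12 in males and at 3.43 and 4.68 in females. Both females were above both males, with a gap of 0.29 set by female 1. The difference was 0.93 (SE 0.44, 95% interval -0.26 to 2.11; limma, adjusted p = 0.969). It was 0.30 without female 2 and 1.55 without female 1.

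Lta4h encodes the hydrolase that makes leukotriene B4. It was at 3.13 and 4.87 in males and at 4.52 and 4.43 in females. Male 1 alone was low, and male 2 was above both females. The difference was 0.47 (SE 0.60, 95% interval -1.15 to 2.09; limma, adjusted p = 0.972), and without male 1 it was -0.40.

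**Figure D2:**
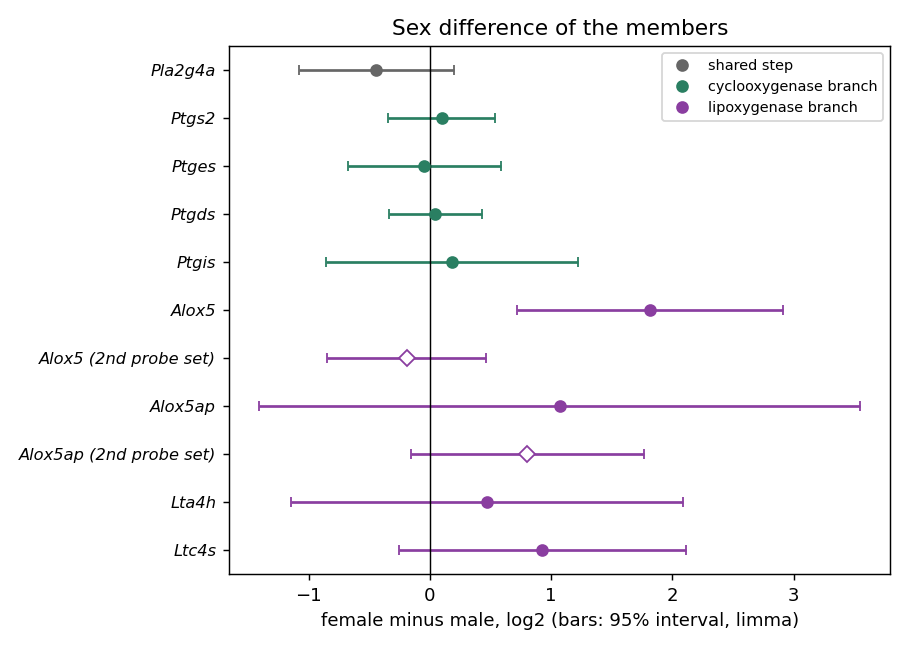
Female minus male difference of each member on the log2 scale (x axis), with the 95% interval of limma; filled circles are the probe sets with the highest mean and open diamonds the other probe sets of Alox5 and Alox5ap. Before any adjustment, the interval of Alox5 (0.72 to 2.91) lies above 0, that of its other probe set (-0.85 to 0.47) spans 0, and so do those of the other 8 members.

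The sequence before the RefSeq start was read for the members, of which 8 of 10 were matched in the promoter table (GRCm38.p6). The 250 bases before the start are shown for Alox5 and Ltc4s, the lipoxygenase members whose sexes did not overlap, and for Ptgs2, whose signal lay below the array medians. Capitals mark matches, on either strand, to the core of the GC box (GGGCGG), the TATA box letters TATAAA, the CRE half-site TGACG or the E-box CACGTG. Among 32851 such stretches, 32.7% hold the GC box core, 12.4% TATAAA, 17.8% TGACG and 6.02% CACGTG. The sequences, each 5′ to 3′ on the strand of the gene, are those of Alox5 at chr6:116461179-116461428 (minus strand), Ltc4s at chr11:50238533-50238782 (minus strand) and Ptgs2 at chr1:150099781-150100030 (plus strand).
Alox5: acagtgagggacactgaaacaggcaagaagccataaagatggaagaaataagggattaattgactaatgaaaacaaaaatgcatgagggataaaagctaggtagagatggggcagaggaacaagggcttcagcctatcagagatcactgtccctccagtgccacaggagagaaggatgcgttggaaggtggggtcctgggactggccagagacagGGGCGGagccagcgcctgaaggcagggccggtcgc
Ltc4s: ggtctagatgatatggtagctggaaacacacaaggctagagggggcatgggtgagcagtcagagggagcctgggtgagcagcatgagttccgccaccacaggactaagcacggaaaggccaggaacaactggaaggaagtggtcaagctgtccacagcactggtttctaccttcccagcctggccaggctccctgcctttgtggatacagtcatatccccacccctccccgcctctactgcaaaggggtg
Ptgs2: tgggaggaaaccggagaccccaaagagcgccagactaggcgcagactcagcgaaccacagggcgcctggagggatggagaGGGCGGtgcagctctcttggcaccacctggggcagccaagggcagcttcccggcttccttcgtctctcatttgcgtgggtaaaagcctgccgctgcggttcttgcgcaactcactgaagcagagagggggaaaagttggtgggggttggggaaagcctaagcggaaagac
Alox5 holds 1 GC box core, from 35 to 30 bases before the start, and Ptgs2 holds 1, from 170 to 165 bases before it. None of the 4 motifs occurs in the Ltc4s stretch. Ptges, not shown, holds 2 GC box cores. GC content was 52.8% for Alox5, 57.6% for Ltc4s and 61.6% for Ptgs2. A match describes letters and is not evidence of binding, and the absence of one says only that these letters are not in the window.

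The branches were then set side by side. The lipoxygenase members had differences between 0.47 and 1.81, with 4 of 4 above 0 and a median of 1.00. The 1.81 and the 4 of 4 rest on the higher Alox5 probe set, which lay among neighbours on the strand opposite to the gene. The lower Alox5 probe set was at -0.19. The median of 1.00 lies between Alox5ap (1.07, SE 0.93, sexes overlapping) and Ltc4s (0.93). The Alox5ap probe sets lay in runs of opposite strand, and which run is the gene's own was not determined. The other Alox5ap probe set was at 0.80. The cyclooxygenase members had differences between -0.05 and 0.18, with 3 of 4 above 0 and a median of 0.07. Over all probe sets, 48.8% of differences were above 0, with a median of -0.0062. The branch medians differed by 0.93, beside an SD of 0.70 between arrays of one sex in the same quantity, and no test of this difference was made. Without male 1 the medians differed by 0.24, and with the lower probe sets of Alox5 and Alox5ap by 0.57, an alternative chosen after seeing the data. Of the 4 cyclooxygenase members, Ptgs2 lay below the array median on every array and Ptges on all but male 1, so only Ptgds and Ptgis lay above it throughout.

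By array, the lipoxygenase members did not split cleanly by sex. Measured as the median deviation of the branch from its gene means, the value was -0.93 in male 1, 0.08 in male 2, 0.11 in female 1 and 1.11 in female 2. Male 2 and female 1 lay close together, while male 1 was low and female 2 was high. The corresponding cyclooxygenase values were 0.01, -0.12, -0.09 and 0.12. Female 2 was the highest array for 3 of 4 lipoxygenase members, 3 of 4 cyclooxygenase members and 24.8% of all probe sets.

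Markers of other cells moved with some of these values. Of 18 macrophage markers, 15 were higher in females and 14 were highest in female 2; 8 did not overlap toward females (15.8% of all probe sets). Their median level was 3.33 and 3.05 in males and 3.26 and 4.60 in females, and Mpeg1 lay below the array median on every array. Of 8 adipocyte markers, 7 were higher in females, with median levels of 4.34 and 4.96 in males and 5.45 and 5.56 in females. Male 1 was their lowest array, as in the lipoxygenase branch and also for the endothelial markers given below. The part of macrophages and adipocytes in the Alox5, Alox5ap and Ltc4s values was not tested.

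Mast cells and neutrophils are known sources of leukotrienes. Of 8 mast cell markers, 6 lay below the array median on every array, among them Cpa3, Cma1 and Tpsb2, and 1, Ms4a2, lay above it on all 4. Of 11 neutrophil markers, 0 lay above the array median on all arrays and 6 on none. The 4 platelet markers had a median difference of 0.17 and the 8 endothelial markers 0.27, the latter with median levels of 3.67 and 4.68 in males and 4.43 and 4.65 in females. Tendon markers had a median difference of -0.02 and skeletal muscle markers -0.15. By deviation from the gene means, female 2 was the lowest array for muscle markers and the highest for tendon markers. The mean deviation of the 9 muscle markers from their gene means was -0.63 in female 2, against 0.16 to 0.24 elsewhere. The median deviation was -0.16 in female 2, against 0.06 to 0.16 elsewhere. Myh4 and Actn3 set most of this mean. Myh4, a fast myosin gene, was at 10.61 and 10.46 in males, 10.20 in female 1 and 7.35 in female 2. Actn3 was at 10.01 and 9.67 in males, 9.41 in female 1 and 6.68 in female 2. Myh1 and Myh2 were not lower in female 2 than in males. For the 9 tendon markers the mean deviation was 0.12 and -0.17 in males, -0.37 in female 1 and 0.42 in female 2. Female 2 was also the array in which the lipoxygenase members were highest as a branch. The part of these shifts in the members' values was not tested. Over all these markers of cell types, 0 passed the adjusted threshold by limma, and the unadjusted p was under 0.05 for 3 adipocyte, 1 macrophage, 1 neutrophil and 1 tendon marker, all higher in females (2.64% of all probe sets in that direction).

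**Figure D3:**
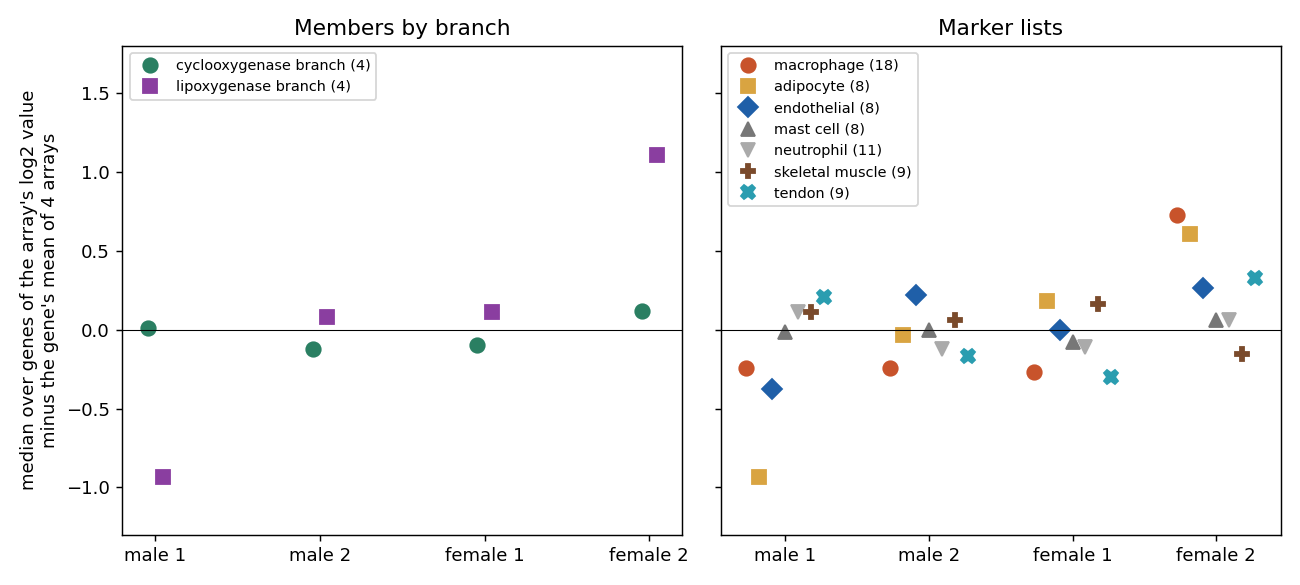
Median over the genes of a list of each array's log2 value minus the gene's mean over the 4 arrays (y axis), by array, for the branches (left) and for marker lists of cell types (right); the number of genes is in brackets. The lipoxygenase branch ran from -0.93 in male 1 to 1.11 in female 2; macrophage markers were at 0.73 in female 2 alone, and adipocyte markers at -0.94 in male 1.

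The rest of the pathway was examined through 62 further genes in 7 lists, of which 56 had a probe set with 1 symbol. Of these, 0 passed the adjusted threshold by limma, and 1, Hpgd, had an unadjusted p under 0.05 (4.49% of all probe sets). The groups did not overlap for 4 genes toward females (15.8% of all probe sets) and 5 toward males (17.5% of all probe sets). The median difference was 0.02, and 17 of the 56 lay below the array median on every array.

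Upstream, the 17 phospholipase and arachidonate supply genes had a median difference of -0.0043. Pla2g15, a lysosomal phospholipase gene, was at 6.22 and 3.65 in males and 2.31 and 4.29 in females, so the sexes overlapped, and its other probe set differed by -0.08 (SE 0.16). Lpcat3, which returns arachidonate to phospholipids, differed by 0.43 (SE 0.24). The secreted enzyme gene Pla2g2a, known to be disrupted in C57BL/6 mice, lay below the array median on every array.

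Of the other prostanoid synthases, Ptges3, the cytosolic prostaglandin E synthase and Hsp90 cochaperone gene, was higher in both males than in both females, with a difference of -0.45 (SE 0.21). Cbr1, a carbonyl reductase gene, differed by 0.29 (SE 0.68) with its higher probe set and by -1.01 (SE 0.16) with its lower one, so its probe sets disagreed. The 7 genes of this list had a median difference of -0.05. Of the 7 prostanoid receptors measured, 3 lay below the array median on every array, and the median was 0.04. The prostacyclin receptor gene Ptgir differed by 0.30 (SE 0.23) and the prostaglandin E2 receptor gene Ptger4 by -0.17 (SE 0.23). Ptgir lay below the array median in male 2.

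Prostaglandin transport and breakdown genes had a median of 0.36, and 5 of 5 were above 0. Of the 5, 3 lay above the array median on all 4 arrays. Ptgr1, which sets the median of 0.36, lay below the array median in male 1 and female 1. By median deviation from the gene means, male 1 was the lowest array here too (-0.30) and female 2 the highest (0.52). Hpgd, which encodes the dehydrogenase that inactivates prostaglandins, was at 2.80 and 2.68 in males and 3.10 and 3.57 in females. Both females lay above both males, a difference of 0.60 (SE 0.21; limma, adjusted p = 0.969). The prostaglandin transporter gene Slco2a1 differed by 0.51 (SE 0.81), with replicate 2 above replicate 1 by more than the sexes differed.

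Among the other lipoxygenases, 4 of 6 lay below the array median on every array, and Alox12, the platelet-type enzyme gene, differed by 0.0033 (SE 0.15). Of the 9 leukotriene conversion and transport genes, Mgst2, a second enzyme able to make leukotriene C4, was at 3.26 and 2.98 in males and 4.37 and 3.57 in females. The difference was 0.85 (SE 0.32; limma, adjusted p = 0.969), with both females higher. Mgst3 differed by 0.57 (SE 0.38), and the list had a median of 0.12. Dpep2, which encodes a dipeptidase that turns leukotriene D4 into E4, differed by -0.28 (SE 0.39) with its higher probe set. With its lower one, named after its values were seen, it differed by 0.99 (SE 0.16). This lower probe set was below the array median in both males (2.17 and 1.95) and above it in both females (2.99 and 3.11).

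Of the 5 leukotriene and lipoxin receptors measured, 3 lay below the array median on every array, with a list median of 0.08. Ltb4r1, the high-affinity leukotriene B4 receptor gene, differed by 0.08 (SE 0.23). Cysltr1, a cysteinyl leukotriene receptor gene named after its values were seen, was at 2.27 and 1.98 in males and 2.29 and 3.17 in females, highest in female 2. It lay below the array median in both males and just above it in female 1, where the median was 2.27.

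**Figure D4:**
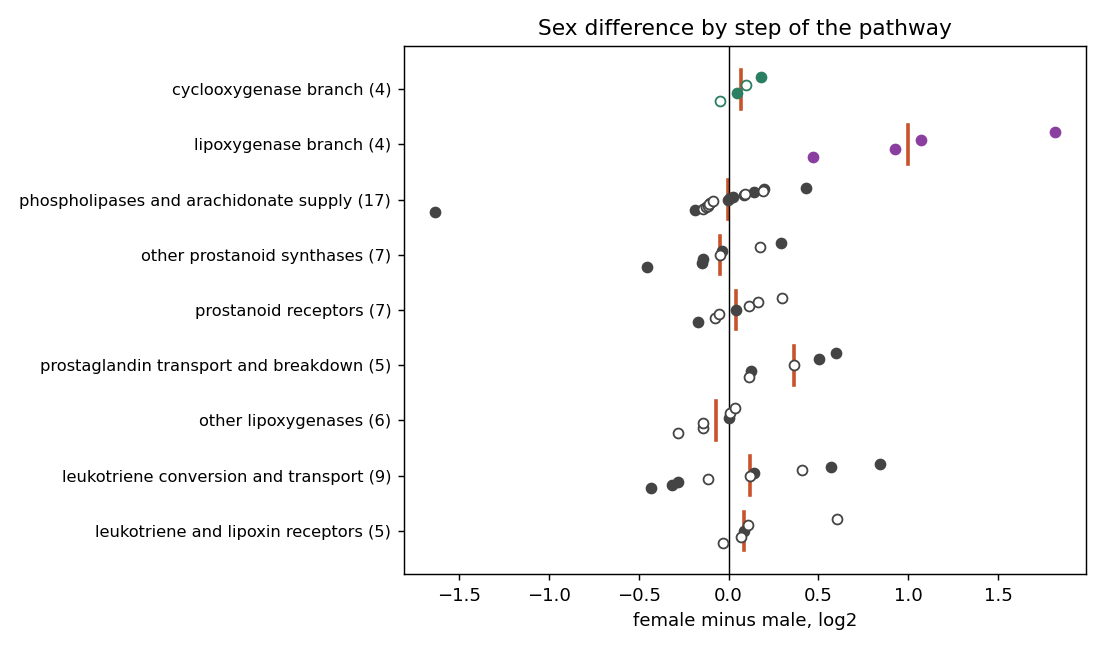
Female minus male difference of each gene on the log2 scale (x axis), by step of the pathway; filled circles are genes above the array median on all 4 arrays, open circles the others, and orange bars the list medians. The lipoxygenase branch has a median of 1.00, and the medians of the other lists plotted lie between -0.07 and 0.36; Pla2g4a (-0.44) is not plotted.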

How the data were processed

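Gene expression was measured in 2 male and 2 female samples of mouse tendon on Mouse Gene ST 2.1 arrays. The authors deposited log2 expression values with a column for each array. Oligo and RMA are named in the submitters' processing notes. Their versions, the probe set level and the genome build are not given in the sources used here. That the scale is log2 follows from RMA and from the range of the values (0.517 to 11.9). No further normalization was applied. Precision is limited by the number of arrays.

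Of 41345 rows, 23521 have exactly 1 symbol in GEO's platform annotation, which can be old; 1814 have more than 1 and 16010 lack one. Of the 23521, 23328 were matched by Entrez ID to RefSeq (GRCm38.p6) and 0 symbols changed. Each gene was represented by its probe set with the highest mean. Sex was fitted with limma 3.58.1 in R 4.3.3 (lmFit, eBayes), tested on simulated data, with Benjamini-Hochberg adjustment over all 23521 at 0.05; tests are two-sided and differences are female minus male. Figures used matplotlib 3.10.9.

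Members and lists were chosen with earlier results of these data known. All members were named, and from each pathway list up to 2 genes of largest difference among those above the median level of all probe sets tested (2.46); other named genes are examples. Promoter sequences came from RefSeq. Alternatives were all rows, a filter on dim probe sets, another prior, quantile normalization once more, median centring, weights per array, a block for the replicate number, the mean over probe sets, the lower probe sets, and leaving out each array, where a lone array is assumed to vary like the other sex.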

Additional observations from a re-analysis of the deposited data

How the results depend on the processing

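Limma called 0 probe sets under each of the 13 alternatives, including an adjusted p under 0.1. The count at an unadjusted p under 0.05 was 1870 with all rows tested, 472 with dim probe sets left out, and between 836 and 1511 when each array was left out. The count of members at that threshold was 0 with the lower-mean probe sets of Alox5 and Alox5ap and 0 with the mean over the probe sets of a gene. It was between 1 and 3 when an array was left out: 3 without female 1 (Alox5, Ltc4s and Ptgis) and 3 without male 2 (Alox5ap, Lta4h and Pla2g4a, not Alox5). With its lower-mean probe set Alox5 was at -0.19. Over the arrays left out, the differences ran from 1.26 to 2.37 for Alox5, -0.15 to 2.29 for Alox5ap, -0.40 to 1.34 for Lta4h, 0.30 to 1.55 for Ltc4s, -0.31 to 0.22 for Ptges, -0.35 to 0.71 for Ptgis and -0.0061 to 0.20 for Ptgs2. The lipoxygenase median ran from 0.39 to 1.61, the cyclooxygenase median from -0.081 (without female 2) to 0.15 and their difference from 0.24 to 1.47. Of the values of single members under alternatives, 108 kept their direction and 7 turned it. Many of the 108 could not turn. All rows, the filter, another prior, weights per array and the block left each difference as it was. So did the mean over probe sets and the lower probe sets for members with 1 probe set. The 7 came from leaving out an array or from the lower-mean probe set of Alox5. Ptgs2 and Ptges were among the dim probe sets and have no value there. The cause of these changes was not tested. Same-numbered samples deviated with a correlation of -0.06 over all probe sets. The labels do not state whether they share more than a number, and a pairing that affects some genes was not tested. With the replicate number as a block, 981 probe sets and 1 member had an unadjusted p under 0.05 by limma. The Alox5 difference of 1.81 could not move there, because the block leaves a difference of 2 arrays against 2 unchanged.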

Other observations

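Genes next to this pathway were listed after seeing the data. Over all probe sets, 48.8% of differences were above 0 and 24.8% were highest in female 2. Of 4 annexin-related and glucocorticoid-induced genes, among them Anxa1, whose product is known to restrain phospholipase A2, 4 were above 0 and 3 were highest in female 2. Anxa1 was at 7.62 and 7.77 in males and 7.61 and 8.24 in females, so the sexes overlapped. Tsc22d3, a glucocorticoid-induced gene, was at 5.09 and 5.13 in males and 5.45 and 5.41 in females, a difference of 0.32 (SE 0.14; limma, adjusted p = 0.969). Of 6 platelet-activating factor genes, 3 were above 0, with Pafah1b3 at 0.38 (SE 0.21). Of 6 epoxygenase and epoxide hydrolase genes, 5 were above 0, and the soluble hydrolase gene Ephx2 followed the replicate numbers, at 3.55 and 2.48 in males and 3.98 and 2.70 in females. Over these lists limma called 0 genes, and 0 had an unadjusted p under 0.05.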
